A study of Capra hircus with 10 samples.

Results

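The antisense lncRNAs are transcripts that the authors assembled from the ovary libraries of the Anhui white goat and typed as long non-coding RNAs lying on the strand opposite to another gene. Of 50146 transcripts in the expression table, 974 carried this type, and 972 of them are described here, under 827 assembly gene identifiers. The comparison set 5 ovaries of the luteal phase against 5 of the follicular phase, each a whole ovary collected at a slaughterhouse and sequenced as 1 library depleted of ribosomal RNA, with strand kept. No treatment, transgene or cell line was involved, and the labels give no age. The other new transcripts of the table were 2777 lincRNAs, which lie between genes, and 1454 transcripts of uncertain coding potential (TUCPs), beside 1173 annotated lncRNAs and 43766 mRNA transcripts.

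Antisense transcripts share sequence, in reverse complement, with the gene they oppose. Known examples act on that neighbourhood: Tsix opposes Xist and restrains it, and Airn and Kcnq1ot1 silence imprinted genes close to them. Others can pair with the sense RNA, compete with its transcription, or be by-products of it, and many are quickly degraded by the nuclear exosome. In the ovary, follicles grow and make estrogen in the follicular phase, and after ovulation the corpus luteum, a vascular gland, makes progesterone in the luteal phase. The genes that the antisense lncRNAs oppose, their genome positions and their sequences were not analysed here.

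All levels are FPKM, the fragments of a transcript relative to its length and to all mapped fragments of the library. Depth per ovary is unknown, and a listed 0 is not proof of absence, since 159 mRNA transcripts were at 0 in one ovary and at 10 or more in another ovary of that phase. Over all classes, 36980 to 37707 transcripts were listed above 0 in luteal and 38433 to 40259 in follicular phase ovaries. Markers of cell types also differed between the phases, where 43.7% of all tested genes did (adjusted p under 0.05, limma over genes). All 6 tested markers of luteal steroidogenic cells were higher in the luteal phase, their summed FPKM running from 5905 to 8076 there and from 131 to 183 in the follicular phase. All 5 endothelial markers were higher in the luteal phase too (summed FPKM 184 to 236 against 79.7 to 92.6). Of 7 granulosa cell markers 3 were lower and 1 higher in the luteal phase (119.8 to 685 against 212 to 1069), and of 7 oocyte markers 5 were lower and 0 higher (7.46 to 15.9 against 14.6 to 41.0). For stroma, 1 of 5 markers was higher and 1 lower (1223 to 2300 against 1227 to 1768), and of 2 blood markers 0 passed the test (15.4 to 20.3 against 11.3 to 30.2). No defining marker was at 0 as a group mean. In such bulk samples fewer cells of a type and less RNA per cell cannot be told apart, and the part of these marker differences in the results on antisense lncRNAs was not tested.

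The antisense lncRNAs were weakly expressed. The median FPKM over the 972 was between 0.0887 and 0.113 in luteal phase ovaries and between 0.104 and 0.165 in follicular phase ovaries, so the phases overlapped. The same median was higher for TUCPs, at 0.269 ± 0.0246 in the luteal phase (SD, n = 5), and for annotated lncRNAs, at 0.791 ± 0.0248, and lower for lincRNAs, at 0.0145 ± 0.0202, against 0.101 ± 0.0114 for the antisense class. In the follicular phase the medians were 0.126 ± 0.0244 for the antisense lncRNAs, 0.0846 ± 0.0263 for lincRNAs, 0.315 ± 0.0555 for TUCPs and 0.842 ± 0.0735 for annotated lncRNAs, which is the same order. Every antisense lncRNA reached an FPKM of 0.1 in at least 1 ovary, but only 432 ever reached 0.5, 106 reached 1 and 7 reached 10. Just 8 stayed at 1 or more in all 10 ovaries.

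Most antisense lncRNAs recurred between ovaries. As the plot of ovaries per transcript shows, 296 of the 972 (30.5%) were above 0 in all 10 ovaries, against 481 of 2777 lincRNAs (17.3%), while 79 (8.13%) were above 0 in a single ovary, against 353 lincRNAs (12.7%). Of the 972, 288 had over 50% of the FPKM summed over the 10 from 1 ovary. This holds of necessity for the 79 above 0 in a single ovary and, unless both values were equal, for the 77 in 2 ovaries. The other classes were not counted in this way. Over the 509 that passed the filter given below, Pearson's r of log2(FPKM + 0.1) ran from 0.356 to 0.621 between luteal phase ovaries (median 0.435, 10 pairs), from 0.391 to 0.659 between follicular phase ovaries (median 0.50, 10 pairs) and from 0.184 to 0.457 between phases (median 0.314, 25 pairs). These correlations run across transcripts, each library enters several pairs, and transcripts are not independent replicates. The between-phase range lay lower but overlapped both within-phase ranges.

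**Figure D1:**
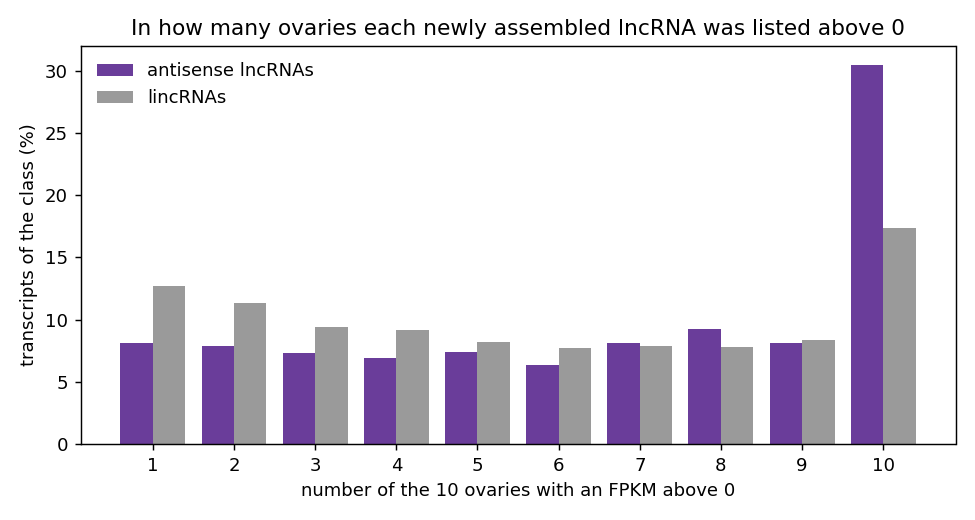
Share of the 972 antisense lncRNAs (purple) and of the 2777 lincRNAs (grey), in percent of the class on the vertical axis, by the number of the 10 ovaries in which the transcript had an FPKM above 0. The tallest antisense bar, 30.5%, stands at 10 ovaries, where the lincRNA bar is 17.3%.

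More antisense lncRNAs were listed in follicular than in luteal phase ovaries. In luteal phase ovaries 1 to 5, 605, 623, 617, 607 and 598 were above 0. In follicular phase ovaries 1 to 5 the numbers were 725, 671, 643, 666 and 635. The phases did not overlap, and the means were 610 ± 9.95 and 668 ± 35.3 (SD, n = 5 each), or 62.8% and 68.7% of the class. The difference of -58 (luteal minus follicular) became -43.8 without follicular phase ovary 1, which had the most. The follicular mean was 1.10 times the luteal mean for antisense lncRNAs, 1.25 times for lincRNAs, 1.04 times for mRNA transcripts, 1.01 times for TUCPs and 1.00 times for annotated lncRNAs. The number of listed transcripts of all classes therefore moved the same way, and its part in this difference was not tested.

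The gap in numbers was smaller at higher levels, and the phases were then no longer apart. At an FPKM of 0.1 or more the numbers were 469 to 500 against 496 to 575, and the phases overlapped. At 0.5 or more they were 108 to 122 against 102 to 178, and at 1 or more 29 to 34 against 27 to 52, with overlap in both cases and a wider spread in the follicular phase. The follicular mean was 1.08 times the luteal mean at 0.1 or more, 1.20 times at 0.5 or more and 1.19 times at 1 or more, so the ratio did not fall with the level. The antisense lncRNAs that were listed in an ovary had the same level in both phases within their spread, a median of 0.250 ± 0.0244 in luteal and 0.255 ± 0.0464 in follicular phase ovaries (SD, n = 5 each). Per transcript, 360 were above 0 in more follicular than luteal phase ovaries (37.0%, against 20.4% of all transcripts), 197 in more luteal phase ovaries (20.3%, against 10.2%) and 415 in as many of each. Any number of luteal phase ovaries alone listed 44 (4.53%, against 2.49% of all transcripts), and any number of follicular phase ovaries alone listed 118 (12.1%, against 6.0%), so all transcripts leaned the same way. Of those, 23 and 56 came from 1 ovary, with 4 to 6 in each luteal and 8 to 14 in each follicular phase ovary.

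**Figure D2:**
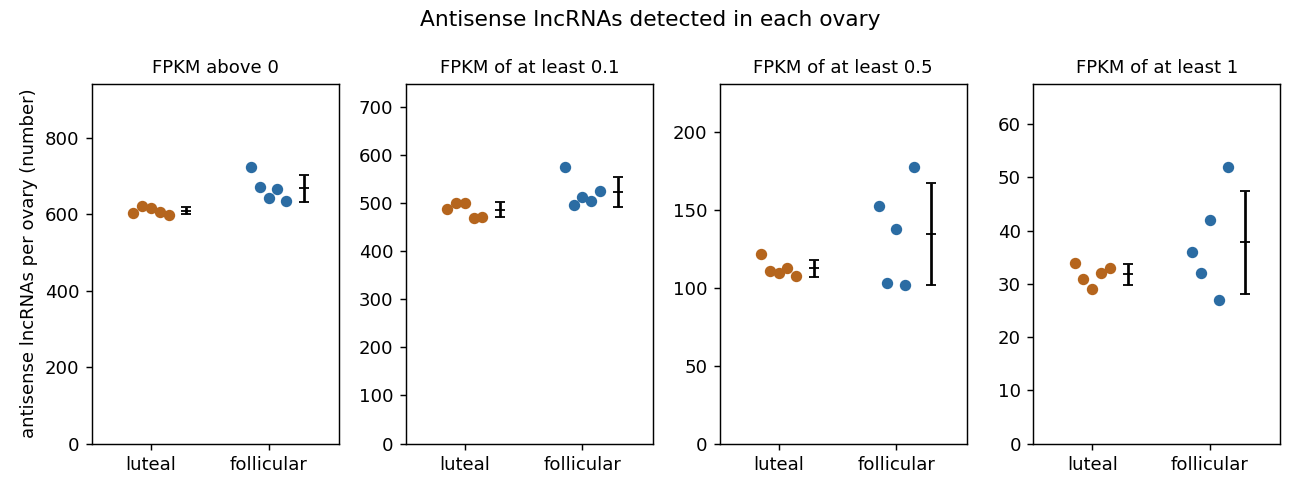
Number of antisense lncRNAs per ovary (vertical axes, each from 0) with an FPKM above 0, or of at least 0.1, 0.5 and 1, in luteal (brown) and follicular (blue) phase ovaries. Points are ovaries and bars the mean ± SD of 5; the phases are apart in the first panel, at 598 to 623 against 635 to 725, and overlap in the others.

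The question of the study was which transcripts differ between the phases. Transcripts that reached an FPKM of 0.1 in 5 or more of the 10 ovaries entered a limma fit on log2(FPKM + 0.1), luteal minus follicular, with Benjamini-Hochberg adjustment over all 32842 transcripts that passed, and an adjusted p under 0.05 was taken as a call. This scale understates the change of weak transcripts. Of the 972 antisense lncRNAs 509 passed the filter (52.4%), and 61 of them were called (12.0%), where 17.3% of all tested transcripts were. In the luteal phase 39 were higher (7.47% of all tested transcripts were called in that direction) and in the follicular phase 22 (9.82% of all). The share of calls was thus lower than that of all transcripts, and the antisense level was low: 419 of the 509 had a mean FPKM under 0.5. Against all transcripts, most of which are mRNA transcripts, the order differed with the level. Under a mean FPKM of 0.2, 12 of 136 antisense lncRNAs were called (8.82%, against 7.0% of all transcripts of that level), and from 0.5 to 1, 7 of 59 (11.9%, against 9.22%). Among transcripts with a mean FPKM from 0.2 to 0.5, 37 of 283 antisense lncRNAs were called (13.1%), against 9.29% of all transcripts of that level, 18.6% of lincRNAs and 7.03% of mRNA transcripts. At a mean FPKM of 1 or more, 5 of 31 were called (16.1%), against 23.3% of all. LincRNAs and TUCPs were called more often than antisense lncRNAs at every one of these levels. For lincRNAs the share was 14.1% under 0.2, 21.9% from 0.5 to 1 and 25.4% at 1 or more. For TUCPs it was 14.8% under 0.2, 18.2% from 0.2 to 0.5 and 20.5% at 1 or more, and it was closest to the antisense share from 0.5 to 1. Annotated lncRNAs were called less often than antisense lncRNAs under 0.5 and more often above it.

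Over all 509 tested antisense lncRNAs the differences leaned to the follicular phase, much as over all transcripts. A log2 difference below 0 was found for 318 of them (62.5%, against 59.9% of all transcripts), with a median of -0.26 against -0.15. At an unadjusted p under 0.05 there were 150 (29.5%, against 31.6% of all transcripts), 63 or 42.0% of them higher in the luteal phase, against 37.7% over all transcripts. Among the 61 calls, 63.9% were higher in the luteal phase, against 43.2% of the calls over all transcripts, 30.5% of 190 lincRNA calls, 28.7% of 188 annotated lncRNA calls and 52.4% of 189 TUCP calls. This is a share of calls. Of those tested, the 39 luteal calls among 509 were close to the 7.47% of all transcripts. The 22 follicular calls were fewer than the 9.82% of all. The median log2 difference was 1.52 for the luteal calls and -1.40 for the follicular calls. Scaling moved the median of all transcripts from -0.15 to -0.05 when every ovary was shifted to a common median, and the antisense median then was -0.17, with 44 luteal and 15 follicular calls (74.6% luteal, against 57.7% over all transcripts). Quantile normalization gave 52 and 15 (77.6% luteal, against 48.9%), and TPM gave 41 and 13 (75.9% luteal, against 59.2%). The luteal majority was not found with an FPKM minimum of 0.5, which left 6 luteal and 7 follicular calls (42.7% luteal over all transcripts), and it shrank to 35 and 32 without luteal phase ovary 3 (43.3% luteal over all transcripts). The count of calls also rested on single libraries. It was 40 without follicular phase ovary 3 and 40 without follicular phase ovary 4, fits in which 13.4% and 13.5% of all transcripts were called, and the 22 follicular calls became 12 and 14 in these fits, 14 without follicular phase ovary 1 and 13 without luteal phase ovary 4.

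The ovaries of the phases did not overlap for 34 tested antisense lncRNAs that were higher in the luteal phase and 22 that were higher in the follicular phase, where this held for 6.63% and 8.62% of all tested transcripts. Of the 61 calls, 45 had such separate phases (73.8%, against 76.1% of the calls over all transcripts). Over the 19 fits with this filter or none, 29 antisense lncRNAs were called in every fit (5.70%, against 9.05% of all transcripts), 22 in the luteal and 7 in the follicular direction (4.93% and 4.12% of all transcripts, respectively). The filter bore on some of the calls. Of the 509, 11 reached 0.1 in all 5 ovaries of 1 phase and in 0 of the other, so they passed only through the phase in which they were higher, and all 11 were called, 9 in the luteal and 2 in the follicular direction. Of 200 such transcripts in all classes 193 were called, 133 luteal and 60 follicular, and they made up 3.40% of all calls against 18.03% of the antisense calls. Without them 50 of 498 were called (16.8% of all transcripts treated alike were), 30 luteal and 20 follicular. Of these 50, 34 had separate phases (68.0%, against 75.3% of the calls over all transcripts treated alike). Of the 498, 18 were called in every fit (3.61%, against 8.58%), 13 luteal and 5 follicular (72.2% luteal, against 53.4%).

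**Figure D3:**
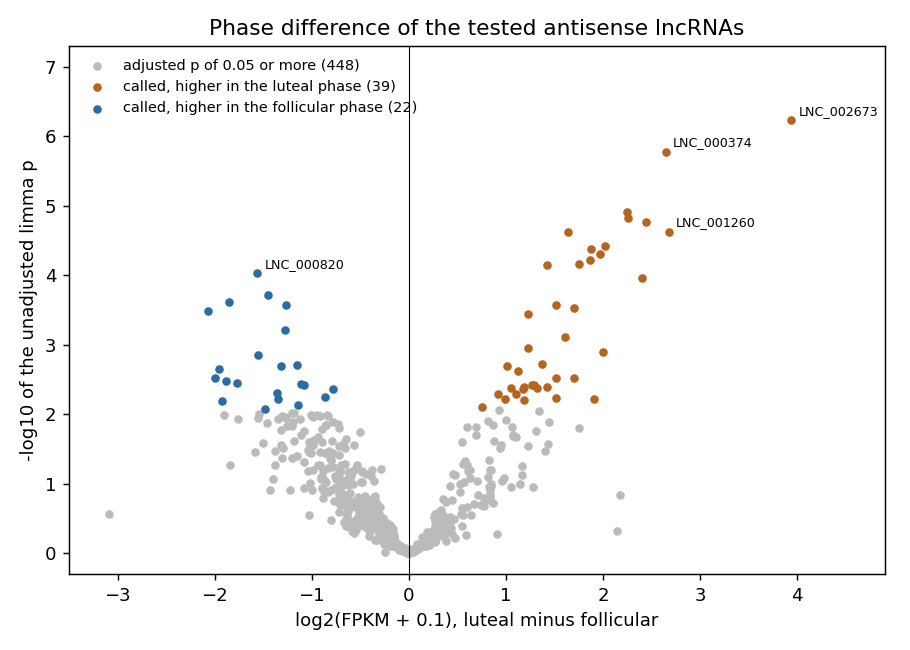
Phase difference of the 509 tested antisense lncRNAs, with the difference of log2(FPKM + 0.1), luteal minus follicular, on the horizontal axis and -log10 of the unadjusted limma p on the vertical axis. The 39 brown points on the right and the 22 blue points on the left were called, the grey points were not, and LNC_002673 stands farthest out at 3.94.

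The largest called difference belonged to LNC_002673, a transcript that was all but limited to luteal phase ovaries. Its FPKM in luteal phase ovaries 1 to 5 was 1.67, 3.11, 1.26, 1.61 and 1.65, and in follicular phase ovaries it was listed at 0 in all but ovary 3, which had 0.173. The lowest luteal value was therefore well above the highest follicular one. The log2 difference was 3.94 (SE 0.36, adjusted p = 8.56e-05, limma), and since most follicular values were 0 its size depended on the pseudocount, from 1.44 with 1 to 6.64 with 0.01. Its neighbour under the same assembly gene, LNC_002674, had FPKM of 0.0747 to 0.478 in luteal and 0.000575 to 2.21 in follicular phase ovaries, a log2 difference of -0.35 (SE 0.74, adjusted p = 0.792, limma), so the 2 transcripts of this gene did not share the pattern.

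LNC_000374 was expressed in every ovary and was higher in all luteal ones. It had an FPKM of 2.46, 2.36, 1.34, 1.77 and 1.95 in luteal phase ovaries and of 0.247, 0.121, 0.165, 0.304 and 0.336 in follicular phase ovaries. The log2 difference was 2.65 (SE 0.27, adjusted p = 0.000175, limma). With no 0 among its values it gave the second lowest p of the class and stayed between 1.26 and 3.08 over the pseudocounts of 1 and 0.01.

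The other 4 of the 6 largest luteal differences among calls with separate phases were weaker transcripts, with 2 or more follicular phase ovaries at 0 each. All 4 were at 0.1 or more in every luteal phase ovary and below it in every follicular one, so they passed the filter through their luteal values alone, a difference was built into their passing, and no p is given for them. LNC_001260 had 0.717, 0.193, 0.657, 1.05 and 1.00 in luteal phase ovaries and 0.0155, 0, 0.0339, 0 and 0.0378 in follicular phase ovaries, a log2 difference of 2.68. LNC_000128 had 0.798, 0.673, 0.243, 0.674 and 0.806 against 0, 0.0289, 0.0714, 0.0604 and 0, a difference of 2.44. In both, every luteal phase ovary was above every follicular one, although luteal phase ovary 2 in the first and ovary 3 in the second were low. LNC_000781 had 0.344, 0.699, 1.31, 0.262 and 0.273 against a single follicular value of 0.0648 in ovary 3 and 0 elsewhere, a difference of 2.40. LNC_003246 had 0.407, 0.282, 0.434, 0.670 and 0.741 against 0.0624, 0, 0, 0.0652 and 0, a difference of 2.26. The phases were again apart, and with a pseudocount of 1 these 4 differences ranged only from 0.55 to 0.73.

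The 6 largest follicular differences among calls with separate phases were smaller than the 6 luteal ones, and all 6 transcripts were listed above 0 in at least 1 luteal phase ovary. LNC_000606 had 1.03, 1.16, 0.565, 0.615 and 1.55 in follicular phase ovaries and 0.142, 0.0357, 0.402, 0.121 and 0.137 in luteal phase ovaries, a log2 difference of -2.07 (SE 0.39, adjusted p = 0.00563, limma). LNC_002867 had 0.700, 0.462, 1.16, 1.41 and 1.16 against 0.221, 0.201, 0.204, 0.252 and 0.0708, a difference of -1.85 (SE 0.34, adjusted p = 0.00468, limma). Both were listed in all 10 ovaries and the phases did not meet.

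LNC_000820 and LNC_002324 were weak, passed the filter through their follicular values alone, and are likewise given without a p. LNC_000820 had 0.359, 0.347, 0.222, 0.177 and 0.171 in follicular phase ovaries and was listed in luteal phase ovaries 2 and 3 alone, at 0.0382 and 0.0613 (log2 difference -1.56). LNC_002324 had 0.150, 0.245, 0.326, 0.112 and 0.223 in follicular phase ovaries and 0.0654 in luteal phase ovary 2, with 0 in the others (log2 difference -1.45). In these transcripts the follicular phase was the one with values in every ovary. LNC_001388 had 0.516, 0.457, 0.397, 0.667 and 0.717 against 0.103, 0.259, 0, 0.114 and 0.216 (log2 difference -1.55, adjusted p = 0.0148, limma), and its call was lost at a pseudocount of 0.01. LNC_002940 had 0.420, 0.821, 0.441, 0.409 and 0.455 against 0.171, 0.101, 0.136, 0.237 and 0.104 (log2 difference -1.27, adjusted p = 0.00858, limma), with follicular phase ovary 2 well above the other 4.

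**Figure D4:**
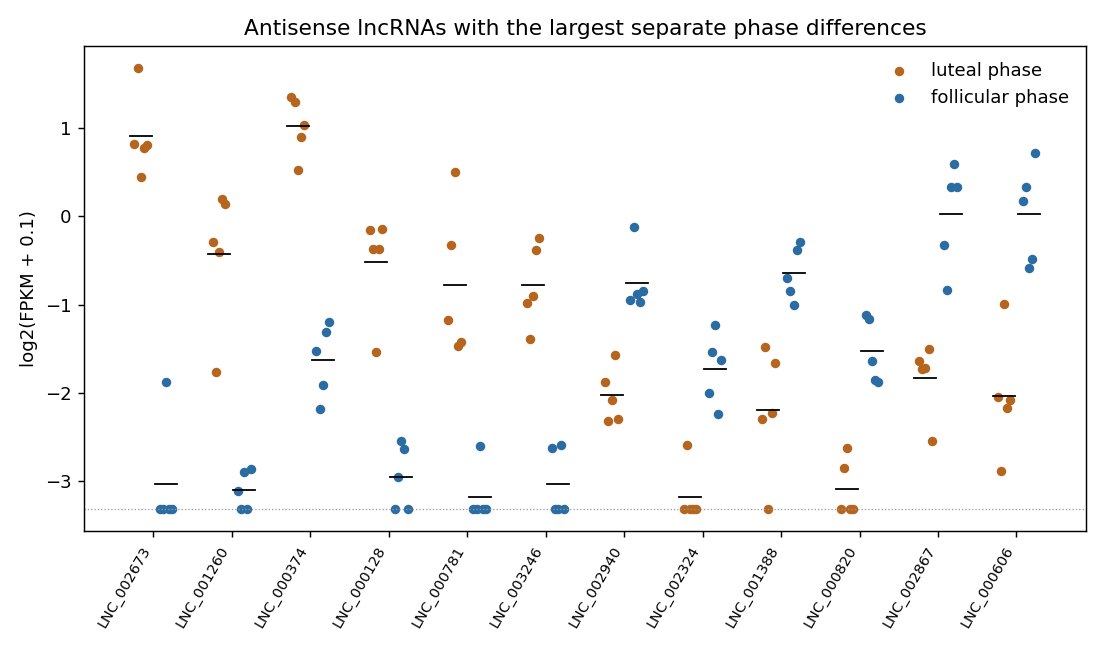
log2(FPKM + 0.1) on the vertical axis for the 6 antisense lncRNAs with the largest called and separate difference in each direction (horizontal axis), in luteal (brown) and follicular (blue) phase ovaries. Points are ovaries, black lines the means of 5 and the dotted line an FPKM of 0; the 6 on the left, led by LNC_002673 at 3.94, have their follicular points at or near that line except LNC_000374.

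LNC_002358 is the other antisense lncRNA, besides LNC_002673, that the study names with a partner gene, and it was called in the follicular direction. It had 3.34, 2.74, 3.50, 3.05 and 4.40 in follicular phase ovaries and 1.75, 1.53, 1.76, 1.13 and 0.791 in luteal phase ovaries. Every follicular value was above every luteal one, and the log2 difference was -1.27 (SE 0.24, adjusted p = 0.00502, limma). The study set it beside BCL2, which encodes an inhibitor of apoptosis, as a co-expressed gene. BCL2, with FPKM summed over its transcripts, had 2.04 ± 0.515 in luteal and 4.43 ± 1.24 in follicular phase ovaries (SD, n = 5 each), a log2 difference of -1.07 (adjusted p = 0.00398, limma over genes). The study set LNC_002673 beside WRNIP1, which encodes a partner of the Werner helicase, as a co-located gene. WRNIP1 had 13.0 ± 1.66 in luteal and 15.9 ± 1.33 in follicular phase ovaries, a log2 difference of -0.29 (adjusted p = 0.0318, limma over genes). The first pair thus moved the same way and the second in opposite ways, but BCL2 had been chosen for its values in these ovaries, which is no independent evidence, and WRNIP1 for its position.

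Detection in a single phase was rare when all of its ovaries were required. Just 5 antisense lncRNAs were above 0 in all 5 luteal phase ovaries and at 0 in all 5 follicular ones (0.514%, where 0.104% of all transcripts were), and 1 showed the reverse (0.103%, where 0.134% of all were). The luteal share was 0.432% for lincRNAs and 0.757% for TUCPs. It was 0.0526% for mRNA transcripts and 0.0853% for annotated lncRNAs. When 4 of the 5 ovaries of a phase sufficed, the counts were 9 luteal and 9 follicular (0.926% each, against 0.199% and 0.455% of all transcripts), so the difference between the phases was not present.

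The 5 luteal ones were all low. LNC_001057 had an FPKM of 0.380, 0.609, 0.142, 0.300 and 0.174 in luteal phase ovaries 1 to 5. LNC_002696 had 0.164, 0.279, 0.369, 0.151 and 0.149. LNC_002698, named here after its values were seen, had 0.201, 0.311, 0.114, 0.105 and 0.153. These 3 passed the filter through their 5 luteal values alone, so a difference was built into their passing, and all 3 were called. LNC_002944 had 0.790, 0.479, 0.0790, 0.0555 and 0.338, and LNC_000474 had 0.718, 0.262, 0.0242, 0.0845 and 0.0667. Neither passed the filter, and in both the values differed by an order of magnitude between ovaries. The follicular one, LNC_001001, had 0.0589, 0.242, 0.0162, 0.0729 and 0.0180 and did not pass the filter either. These counts turned on single ovaries. The luteal count was 8 without luteal phase ovary 3. The follicular count was 5 without luteal phase ovary 2, 4 without luteal phase ovary 4 and 4 without follicular phase ovary 2. Over all transcripts the counts without 1 ovary were not made, so these changes have no background beside them.

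The 8 antisense lncRNAs that stayed at 1 or more in every ovary did not pass the test. LNC_002494 had 9.79, 15.7, 11.1, 11.9 and 11.2 in luteal phase ovaries and 4.99, 8.93, 8.72, 7.32 and 11.6 in follicular phase ovaries. The phases overlapped through follicular phase ovary 5, and the log2 difference was 0.55 (SE 0.21, adjusted p = 0.0996, limma), or 0.68 with an adjusted p of 0.0464 without that ovary. LNC_001038 was at 2.33 to 3.18 in luteal and 2.77 to 3.79 in follicular phase ovaries (log2 difference -0.29, adjusted p = 0.178, limma). LNC_003035 was at 1.27 to 1.71 and 1.59 to 2.56 (log2 difference -0.38, adjusted p = 0.184, limma). LNC_001218 was at 1.13 to 1.89 and 1.06 to 1.78 (log2 difference 0.04, adjusted p = 0.933, limma), so its ranges in the phases nearly coincided. The last 3 were the least variable on the log2 scale among those with an FPKM of 1 or more in every ovary.

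Most antisense lncRNAs were the only transcript under their assembly gene identifier. Of the 827 gene identifiers, 727 held 1 antisense lncRNA, 71 held 2, and 1 held 8. Under its identifier 674 were the only transcript of any class, 82 shared it with a TUCP and 29 with a lincRNA, and 0 shared it with an mRNA or annotated lncRNA. The authors had removed assembled transcripts that overlapped annotated exons, and the part of that selection in this 0 was not tested. The share of calls was close in both kinds, 39 of 311 tested (12.5%) for the only transcripts and 22 of 198 (11.1%) for those with others beside them. The spread was not: the median SD of log2(FPKM + 0.1) within a phase was 0.571 for the only transcripts and 0.798 for the others. Of 43 identifiers with 2 or more tested antisense lncRNAs, 29 had all of them on the same side of 0 and 14 had them on both sides.

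Summing the FPKM of all transcripts under an identifier, a comparison chosen after the data were seen, gave more calls. Of 457 tested identifiers with an antisense lncRNA 132 were called (28.9%), where 40.6% of all 18490 tested identifiers were, 61 of them higher in the luteal and 71 in the follicular phase. The luteal majority among the calls was thus not present at this level. The directions of all called identifiers were not counted, so this split has no background beside it. The identifiers of the 61 called antisense lncRNAs numbered 59. Of these, 39 held no other transcript, so that their sums were the same values, and 18 of the other 20 were also called as sums. The threshold was looser for identifiers, since the largest unadjusted p that was called was 0.00863 for transcripts and 0.0203 for identifiers.

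XLOC_031619, with 8 antisense lncRNAs, the most of any identifier, was higher in the luteal phase. Its 6 tested members all had log2 differences above 0, and 2 were called. LNC_000405 had 1.70, 1.17, 1.07, 2.37 and 1.33 in luteal and 0.529, 0.926, 0.497, 0.513 and 0.475 in follicular phase ovaries (log2 difference 1.22, adjusted p = 0.0128, limma). LNC_000402 had 1.49, 1.41, 0.366, 1.66 and 1.38 against 0.272, 0.564, 0.206, 0.412 and 0.112 (log2 difference 1.70, adjusted p = 0.0251, limma). The phases were apart in the first and overlapped in the second through luteal phase ovary 3. The call of LNC_000402 was lost without any one of luteal phase ovaries 1, 2, 4 and 5 or follicular phase ovaries 1, 3 and 5, with adjusted p from 0.0516 to 0.0623 and log2 differences from 1.48 to 1.69. Summed over the 8, the FPKM was 6.05, 5.75, 2.75, 6.57 and 4.29 in luteal and 1.56, 3.16, 0.885, 1.51 and 1.88 in follicular phase ovaries. The sum over all 9 transcripts of the identifier differed by 1.55 (SE 0.30, adjusted p = 0.00214, limma over identifiers). Of the other identifiers with several tested members, XLOC_026072, whose 5 antisense lncRNAs lay on both sides of 0, had a sum that differed by 0.45 (adjusted p = 0.329, limma over identifiers), and XLOC_161184, also with 5, one that differed by 0.15 (adjusted p = 0.684, limma over identifiers).

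The highest FPKM of the class came from XLOC_228694, and its values did not separate the phases. This identifier holds 4 antisense lncRNAs, LNC_003513 to LNC_003516, and 4 TUCPs. LNC_003516 was at 0, 839.9, 0, 54.9 and 0 in luteal and at 1368, 0, 20.6, 0.287 and 0 in follicular phase ovaries. LNC_003513 was at 2.06, 0, 5e-06, 0.165 and 197 in luteal and at 0.225, 8.96, 0.275, 34.5 and 1312 in follicular phase ovaries. LNC_003514 was at 387, 0.0687, 0, 12.5 and 211 and at 149.8, 12.9, 0, 0.426 and 0. In each of them the values ran from 0 to 387 or more over the 10 ovaries.

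The leading transcript of XLOC_228694 changed from ovary to ovary, as the stacked bars show. It was LNC_003514 in luteal phase ovary 1, LNC_003516 in luteal phase ovary 2 and follicular phase ovary 1, LNC_003513 in follicular phase ovary 5 and a TUCP in the other 6, making 6 different transcripts over 10 ovaries. How the fragments were shared out among the transcripts of this identifier was not tested, so the values of its single transcripts are less certain than their sum. The leading transcript held between 67.9% and 99.9% of the FPKM of the identifier. The sum over the 8 transcripts varied less than the single ones, from 132 to 2014, and did not pass the test (log2 difference 0.30, SE 0.67, adjusted p = 0.747, limma over identifiers). Because of these transcripts the FPKM summed over all 972 antisense lncRNAs ran from 225 to 1805, and XLOC_228694 supplied from 0.00559% to 84.1% of it. Without it and XLOC_229424 the sum was 207 to 227 in luteal and 213 to 288 in follicular phase ovaries. XLOC_229424 also varied within the phases. LNC_003609 was at 1.54, 17.4, 2.39, 6.45 and 0.952 in luteal and 0.288, 29.5, 0.529, 0.200 and 0.0230 in follicular phase ovaries. LNC_003610 was listed at 0 in all luteal phase ovaries and at 23.1, 0, 13.4, 0.273 and 5.16 in follicular ones. The follicular ovary in which LNC_003609 was highest, ovary 2, was the one in which LNC_003610 was listed at 0. The sum over this identifier did not pass the test either (log2 difference -1.22, SE 1.06, adjusted p = 0.380, limma over identifiers).

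**Figure D5:**
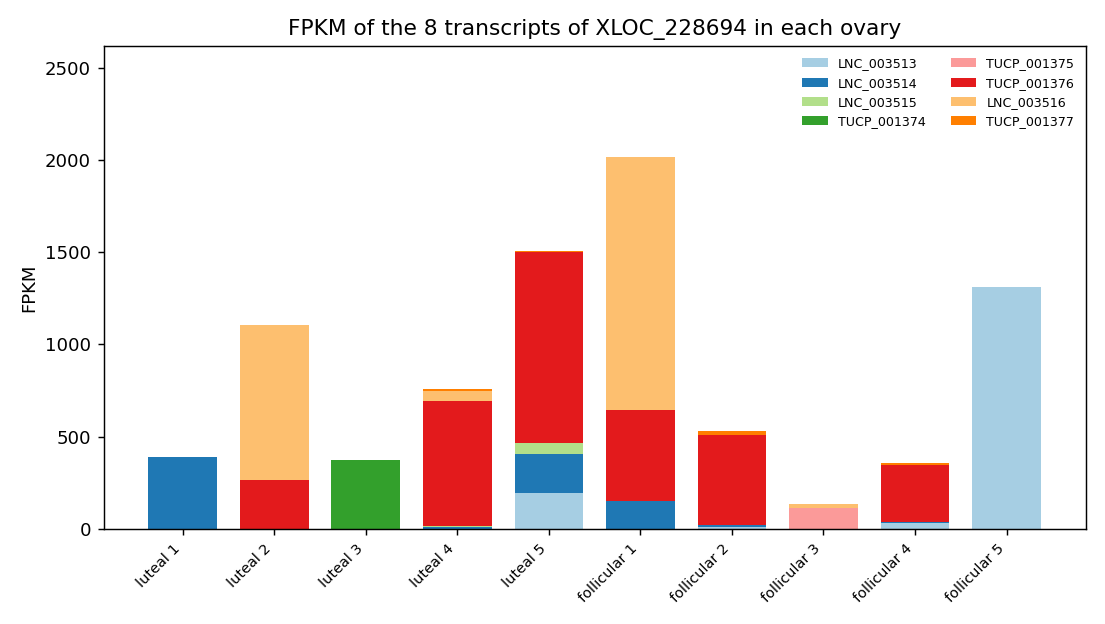
FPKM (vertical axis, from 0) of the 8 transcripts of XLOC_228694, stacked, in each ovary (horizontal axis). Colours are transcripts, of which the 4 named LNC are antisense lncRNAs; the tallest bar, follicular phase ovary 1, reaches 2014 and the lowest, follicular phase ovary 3, reaches 132, and the dominant colour changes between ovaries.

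Genes whose products process, degrade or bind antisense and double-stranded RNA were measured as well. Of a list of 30, the table held 25, all tested, and 13 passed (43.7% of all tested genes did), 2 higher in the luteal and 11 in the follicular phase. The list's median log2 difference was -0.25, against -0.14 over all genes. The directions of all called genes were not counted, so the 2 and 11 have no background beside them. EXOSC2, a subunit of the RNA exosome, had a mean FPKM of 8.99 in luteal and 13.7 in follicular phase ovaries (log2 difference -0.60, adjusted p = 0.000344, limma over genes). DICER1, the nuclease that cuts double-stranded RNA into small RNAs, was higher in the luteal phase, at 12.6 and 10.3 (log2 difference 0.29, adjusted p = 0.0476). After each ovary was shifted to a common median, 8 of the 25 passed (38.8% of all tested genes did), 3 higher in the luteal and 5 in the follicular phase, and EXOSC2 and DICER1 were among them in the same directions.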

How the data were processed

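Total RNA of each of 10 whole ovaries, 5 per phase, was depleted of ribosomal RNA and sequenced with strand information. The authors aligned the reads, assembled transcripts, removed those that were short, single-exon, weakly expressed or scored as coding, and computed the deposited FPKM per transcript and ovary. The genome build is not given in the sources used here. No read counts were used, so depth per ovary is unknown and the spread between ovaries is the only measure of precision. The labels do not say that equal replicate numbers tie ovaries of the phases together, nor whether each ovary came from a different goat.

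FPKM was analysed as log2(FPKM + 0.1) with limma 3.58.1 (lmFit, eBayes with trend, two-sided) in R 4.3.3, for transcripts that reached 0.1 in 5 or more ovaries. Adjustment was over all tested transcripts, over all genes for mRNA FPKM summed by symbol, or over all identifiers for FPKM summed by assembly gene. Medians, counts and shares of the class were described without a test. The named antisense lncRNAs are the 8 with the highest mean, the 6 largest called differences per direction whose phases did not overlap, up to 4 per direction listed in a single phase, the 3 least variable with at least 1 in every ovary, those the study names with a partner gene, and those of the 3 identifiers with the most tested members. The members, gene lists and tests were chosen with earlier results of these data known. Alternatives were other pseudocounts, filters, scalings, thresholds, a fit without trend, a replicate block and leaving out each ovary. Tables of single classes that repeat these rows were not used, and 2 antisense lncRNAs are not reported here. Other steps used Python 3.11.15 with pandas 2.3.3, numpy 2.4.6 and matplotlib 3.10.9.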

Additional observations from a re-analysis of the deposited data

Results flagged for a closer look

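Among the antisense lncRNAs named above, 90 groups of 5 ovaries were examined for a single ovary far from the other 4, and 17 had one. The limit used flags about 1 in 20 groups of normally distributed values. FPKM with many values at 0 are not so distributed, so the chance rate here is unknown. Transcripts listed at 0 in 4 ovaries are flagged whenever the fifth is not. Members of XLOC_228694 and XLOC_229424 gave 7 of them: LNC_003513 at an FPKM of 197 in luteal phase ovary 5 and 1312 in follicular phase ovary 5, LNC_003514 at 149.8 in follicular phase ovary 1, LNC_003515 at 56.4 in luteal phase ovary 5, LNC_003516 at 839.9 in luteal phase ovary 2 and 1368 in follicular phase ovary 1, and LNC_003609 at 29.5 in follicular phase ovary 2. The other ovaries of those groups were between 0 and 54.9.

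Among the called antisense lncRNAs, LNC_002673 was high in luteal phase ovary 2 (3.11, the others 1.26 to 1.67) and was listed in follicular phase ovary 3 alone (0.173). LNC_000781 was listed in follicular phase ovary 3 alone (0.0648) and LNC_002324 in luteal phase ovary 2 alone (0.0654). Luteal phase ovary 3 was low for LNC_000128 (0.243, the others 0.673 to 0.806) and LNC_000402 (0.366, the others 1.38 to 1.66), and luteal phase ovary 5 for LNC_002867 (0.0708, the others 0.201 to 0.252). Follicular phase ovary 2 was high for LNC_000405 (0.926, the others 0.475 to 0.529) and LNC_002940 (0.821, the others 0.409 to 0.455), and for LNC_001001 (0.242, the others 0.0162 to 0.0729), which was not tested.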

How the results depend on the processing

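The 61 calls (39 luteal, 22 follicular) became 13 of 91 tested (6 and 7; 22.2% of all transcripts were called) with an FPKM minimum of 0.5, 23 (17 and 6; 7.60% of all) at an adjusted p under 0.01, 150 (63 and 87; 31.6% of all) at an unadjusted p under 0.05, and 132 (61 and 71; 40.6% of all identifiers) with FPKM summed per gene identifier, an alternative chosen after seeing the data. TPM gave 13 follicular calls (54 in all; 14.05% of all transcripts). Leaving out each ovary gave 40 to 67 calls, 26 to 35 luteal and 12 to 32 follicular (12.7% to 17.0% of all transcripts). The other alternatives gave 42 to 78 calls (11.2% to 17.3% of all transcripts). With the replicate block there were 42 (28 luteal, 14 follicular; 13.6% of all transcripts were called), 40 of them shared with the 61, but the ovaries share only a number: the deviations of same-numbered ovaries correlated at -0.0098 to 0.047, and 2 of 5 luteal phase ovaries correlated best with their own number.

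The difference in antisense lncRNAs above 0, -58, was -22 at an FPKM of 0.5 and -6 at 1, and -66.2 to -43.8 without 1 ovary. The difference of medians, -0.0255, was 0.0104 after quantile normalization and -0.031 to -0.0158 without 1 ovary. The luteal-only count of 5 was 9 with an FPKM limit of 0.1, 9 when 4 of 5 ovaries sufficed and 5 to 8 without 1 ovary. The follicular-only count of 1 was 2, 9 and 1 to 5. When 4 of 5 ovaries sufficed, 0.199% of all transcripts were luteal-only and 0.455% follicular-only. The other settings were not counted over all transcripts. The RNA machinery count of 13 was 8 after the shift to a common median and 9 to 14 without 1 ovary.

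Of the single log2 differences, 681 values kept direction and call. Sign changes were confined to 5 that were not called: LNC_002332 (-0.04; 0.33 at a pseudocount of 0.01, 0.048 after the shift, 0.083 after quantile normalization, 0.0543 with TPM and -0.35 to 0.31 without 1 ovary), LNC_003516 (-0.25; 0.061 at a pseudocount of 1 and -2.40 to 2.02 without 1 ovary), and, without 1 ovary, LNC_000319 (-0.19; -0.52 to 0.0895), LNC_001218 (0.04; -0.0716 to 0.13) and LNC_002334 (0.11; -0.12 to 0.30). Without 1 ovary, LNC_000321 (without luteal phase ovary 2), LNC_002494 and LNC_003609 passed the threshold. The cause of these changes was not tested. Weak transcripts and an unknown depth limit what a listed 0 or an uncalled difference can show.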
